A study of Mus musculus with 6 samples.

Results

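The leptin receptor and the proteins that carry or limit its signal were examined in livers of mice that lack KRAP, called KRAP-/-, and of wild-type littermates. The set was 8 genes given by name, namely Lepr, Leprot, Leprotl1, Jak2, Stat3, Socs3, Ptpn1 and Sh2b1. A probe set, the group of short probes with which the array reads a transcript, was taken when the annotation tied it to exactly 1 of these symbols. This gave 22 probe sets out of 45037 on the array, and 8 genes out of 18193 with such a probe set. Lepr and Stat3 had 4 probe sets each, Leprot and Socs3 had 3 each, and Leprotl1, Jak2, Ptpn1 and Sh2b1 had 2 each.

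The comparison rested on 6 arrays, 1 for each mouse, from 3 KRAP-/- mice and 3 wild-type mice that formed 3 littermate pairs. The KRAP-/- mice lacked exons 11 to 16 of KRAP, which a neomycin resistance cassette replaced, and the wild-type mice carried the intact gene. All mice were 32 weeks old and ate normal chow, and the methods describe a line backcrossed 6 times to C57BL6/J. The deletion was in the germ line, so liver values cannot separate what the loss of KRAP does in liver from what it does elsewhere in the body.

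Leptin is a hormone of fat cells that reports the fat stores of the body. Its receptor, Lepr, has no enzyme activity of its own and signals through the kinase Jak2, which phosphorylates the transcription factor Stat3, while Socs3 and the phosphatase Ptpn1 limit the signal and the adaptor Sh2b1 strengthens it. The receptor is made in splice forms that differ in their intracellular end: the long form, known best from the hypothalamus, carries the site that recruits Stat3, and short forms and a soluble form are made in peripheral organs.

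Signals are given in array medians, that is, each deposited signal divided by the median signal of its array, which was 20.2 to 23.4 on the KRAP-/- arrays and 19.1 to 22.6 on the wild-type arrays. Each probe set has its own brightness, so no level is compared between probe sets. The summed signal of 6 hepatocyte marker genes was 3165 to 3590 in KRAP-/- liver and 3244 to 3300 in wild-type liver, and the tissue read as liver in both genotypes. The only probe set of KRAP itself, now listed as Itprid2, read 19.99 to 21.6 in KRAP-/- liver and 22.3 to 24.5 in wild-type liver. Whether that probe set lies inside the deleted exons was not given in the sources used here, so its value checks nothing. The probe set of Lep, the gene of leptin, read 0.0434 to 0.110 in KRAP-/- liver and 0.0366 to 0.331 in wild-type liver, under the mean of 0.5 set as the minimum for testing.

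Lepr was higher in KRAP-/- liver at 2 of its 3 tested probe sets, with fitted folds of 1.88 and 2.15, and it was the only one of the 8 genes with a probe set past the threshold. The remaining 7 genes, from the neighbouring transcript Leprot through Jak2 and Stat3 to the inhibitors, had no probe set past it. Lepr is the member to which leptin itself binds.

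At the brightest Lepr probe set, 1456156_at, the signal was 5.37, 6.55 and 5.46 in the KRAP-/- mice of pairs 1, 2 and 3, against 2.86, 3.46 and 2.93 in their wild-type littermates. The lowest KRAP-/- value lay well above the highest wild-type value, and each KRAP-/- mouse exceeded its own littermate by nearly the same factor. The means ± SD of 3 mice were 5.79 ± 0.653 in KRAP-/- liver and 3.08 ± 0.329 in wild-type liver, and the ratios within the pairs were 1.88, 1.89 and 1.86. In limma's fit the log2 fold change was 0.91, with a standard error of 0.15, a 95% interval of 0.58 to 1.24 and an adjusted p of 0.022. The call was lost, at the same fold change, with no intensity trend in the moderation of the variance (adjusted p = 0.42), with no filter on dim probe sets (adjusted p = 0.38) and with a floor of 1 array median (adjusted p = 0.28), settings under which 0 of all probe sets passed limma's threshold and 3089, 4551 and 3659 had an unadjusted p under 0.05.

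At the second probe set, 1425644_at, Lepr read 4.39, 4.84 and 4.19 in KRAP-/- liver and 2.13, 1.62 and 2.62 in wild-type liver, in the order of the pairs. The genotypes again did not overlap, but here the pairs differed more from each other, and the largest ratio came from the pair with the lowest wild-type value. The means ± SD of 3 mice were 4.48 ± 0.331 in KRAP-/- liver and 2.12 ± 0.5002 in wild-type liver, with ratios of 2.06, 2.99 and 1.602. Limma gave a log2 fold change of 1.10 (SE 0.21), with a 95% interval of 0.63 to 1.57 and an adjusted p of 0.040. Without pair 2 it was 0.86 with an adjusted p of 0.070, so the call at this probe set was lost when that pair was left out.

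The third tested probe set, 1425875_a_at, read 3.37, 3.52 and 2.85 in KRAP-/- liver and 2.21, 2.26 and 3.15 in wild-type liver. Here the genotypes overlapped: pairs 1 and 2 were higher in KRAP-/- liver by ratios of 1.53 and 1.56, whereas pair 3 had a ratio of 0.904. The log2 fold change was 0.37, with a 95% interval of −0.11 to 0.85 and an adjusted p of 0.46 in limma's fit. The suffix a_at marks a probe set shared by several transcripts of 1 gene. The fourth probe set, 1425873_a_at, was too dim to be tested, with 0.110, 0.558 and 0.132 in KRAP-/- liver and 0.213, 0.171 and 0.850 in wild-type liver, and it showed no common direction.

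**Figure D1:**
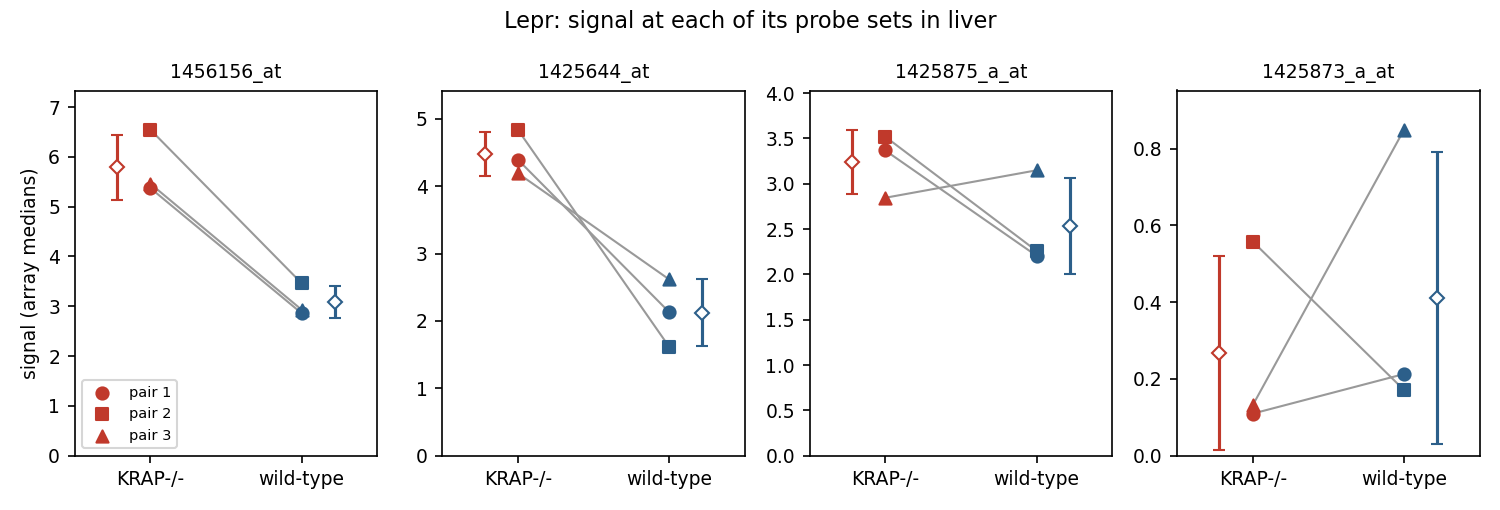
Signal of Lepr in liver at each of its 4 probe sets, in array medians on the vertical axis, with KRAP-/- mice in red and wild-type littermates in blue. Each symbol is 1 mouse, lines join littermates, and open diamonds with bars are means ± SD of 3 mice. The genotypes are apart at 1456156_at and 1425644_at, overlap at 1425875_a_at, and have no common direction at the dim 1425873_a_at.

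The Lepr probe sets were also set against each other within the pairs, as a description. The log2 ratio at 1456156_at exceeded that at 1425875_a_at by 0.30, 0.28 and 1.04 in pairs 1, 2 and 3, a mean of 0.54 ± 0.44 (SD, n = 3), and the log2 ratio at 1425644_at exceeded it by 0.43, 0.94 and 0.83, a mean of 0.73 ± 0.27 (SD, n = 3). Both differences had the same direction in all 3 pairs. An exact 2-sided sign-flip test over 3 pairs cannot go below p = 0.25, so it could not have passed the threshold at any size of difference. Between the 2 probe sets that passed, 1456156_at minus 1425644_at, the difference was −0.13, −0.66 and 0.22, with no common direction. When the 3 tested probe sets were averaged into 1 value, the log2 fold change of Lepr was 0.79 with an adjusted p of 0.077 from limma, past the threshold no longer. Which splice form each probe set reads was not given in the sources used here.

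These changes were read against all 28531 probe sets bright enough to be tested, of which 123, or 0.431%, passed limma's threshold as higher in KRAP-/- liver and 279, or 0.978%, as lower. The threshold was an adjusted p of 0.05. Of the 20 tested member probe sets 2 were higher, both of Lepr, and 0 were lower, while 3 had an unadjusted p under 0.05, against 14.9% of all tested probe sets. All 3 KRAP-/- arrays lay above all 3 wild-type arrays at 2 of the 20, again those of Lepr, against 7.8% of all tested probe sets, and below them at 0 of the 20, against 12.3%. By size alone, 2.96% of the tested probe sets had a larger rise than 1456156_at and 1.73% a larger rise than 1425644_at. A ratio of at least 1.5 in each of the 3 pairs, the limit named in the methods but applied here to the median-scaled signals with no other filter, was met in KRAP-/- liver by the same 2 Lepr probe sets out of the 22 members and by 2.3% of all 45037 probe sets, and a ratio of at most 1/1.5 in each pair by 0 members and by 2.88% of all. The normalization of each gene to the wild-type average in the study's own software was not rerun, so these counts are not those of the study. Neither of the 2 reached a ratio of 2 in each pair.

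**Figure D2:**
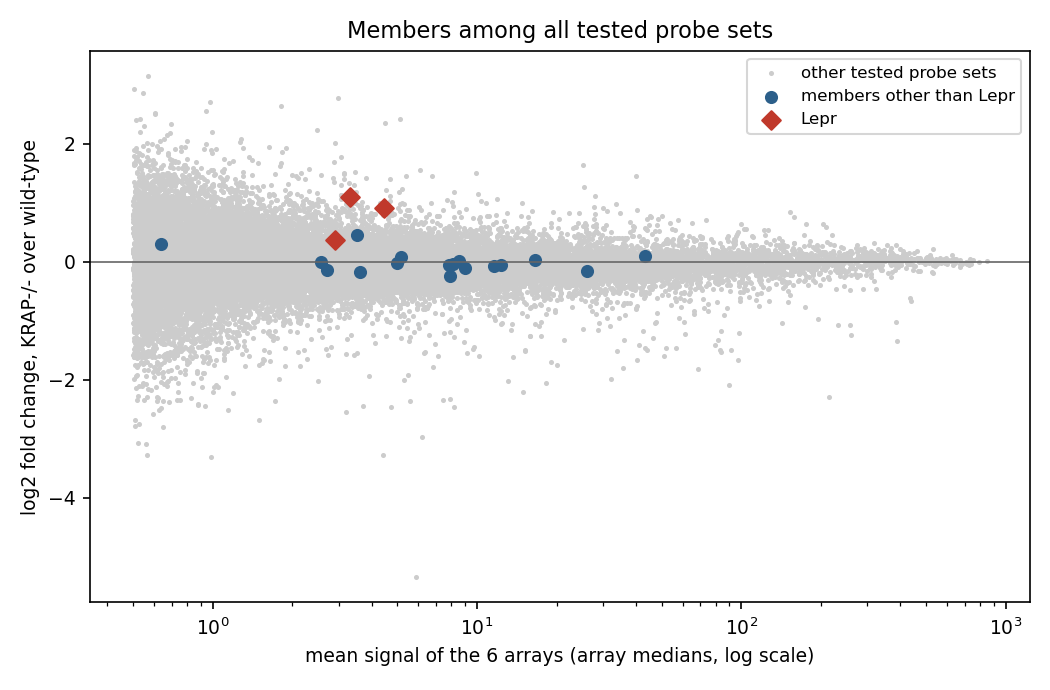
Log2 fold change, KRAP-/- over wild-type, of all 28531 tested probe sets against their mean signal over the 6 arrays (array medians, log scale). The 3 Lepr probe sets (red diamonds) lie above 0 and the other 17 member probe sets (blue) lie between −0.24 and 0.46.

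Leprot, the leptin receptor overlapping transcript, lies next to Lepr on chromosome 4, with 0 other genes listed between them, and encodes a small endosomal protein that lowers the amount of receptor at the cell surface. The bases before their transcript starts are shown as a description, and a link between them and the signals was not tested. Each window holds the 250 bases before a start, from RefSeq on GRCm38.p6, with capitals at GGGCGG or its complement CCGCCC, the core of a site for Sp1 family factors, and at TTCNNNGAA, the spacing that STAT factors bind. Lepr has a pair of annotated starts.
Lepr, chr4:101717157-101717406, plus strand: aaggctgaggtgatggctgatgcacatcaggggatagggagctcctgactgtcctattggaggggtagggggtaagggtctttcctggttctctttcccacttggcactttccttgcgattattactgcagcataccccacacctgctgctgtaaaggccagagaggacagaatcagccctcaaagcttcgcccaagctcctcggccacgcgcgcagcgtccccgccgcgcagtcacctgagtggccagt
Lepr, chr4:101717656-101717905, plus strand: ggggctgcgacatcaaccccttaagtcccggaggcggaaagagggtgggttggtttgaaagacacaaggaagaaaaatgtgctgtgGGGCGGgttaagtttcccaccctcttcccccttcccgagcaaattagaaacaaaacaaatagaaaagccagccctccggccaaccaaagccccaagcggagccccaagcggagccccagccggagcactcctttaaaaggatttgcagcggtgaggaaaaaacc
Leprot, chr4:101647533-101647782, plus strand: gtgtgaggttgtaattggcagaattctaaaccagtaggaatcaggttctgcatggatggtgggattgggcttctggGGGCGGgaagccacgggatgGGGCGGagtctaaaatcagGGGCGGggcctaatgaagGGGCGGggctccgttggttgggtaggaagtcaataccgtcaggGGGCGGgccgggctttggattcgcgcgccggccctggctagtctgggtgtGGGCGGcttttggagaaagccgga
The Leprot window held 6 copies of GGGCGG, whereas the Lepr windows held 0 and 1. Searched on both strands, GGGCGG was present in 32.7% and TTCNNNGAA in 7.02% of 32851 promoter windows of this length, and none of these 3 windows held TTCNNNGAA. The motifs overlapped nowhere in the windows shown. Such letters describe the window and are not evidence that a factor binds there.

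Leprot did not pass the test at any of its 3 probe sets, in contrast to its neighbour. At 1436900_x_at it read 11.3, 10.7 and 12.0 in KRAP-/- liver and 10.5, 12.8 and 12.4 in wild-type liver, which gave a log2 fold change of −0.07 with a 95% interval of −0.34 to 0.19. At 1424438_a_at the values were 7.48, 8.10 and 8.60 in KRAP-/- liver and 8.12, 7.96 and 8.57 in wild-type liver, and at 1451350_a_at they were 4.52, 5.82 and 4.56 in KRAP-/- liver and 4.50, 5.31 and 5.29 in wild-type liver. The genotypes overlapped at all 3 probe sets. The log2 fold changes at 1424438_a_at and 1451350_a_at were both −0.03, with 95% intervals of −0.30 to 0.24 and −0.36 to 0.30, and both turned positive with the values as deposited and with quantile normalization. No interval of Leprot reached the 0.58 at which the interval of the brightest Lepr probe set began. The difference between Leprot and Lepr was not tested.

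Leprotl1, the relative of Leprot with a like role in receptor traffic, did not pass the test either. It read 11.9, 12.4 and 11.9 in KRAP-/- liver and 11.3, 13.8 and 12.7 in wild-type liver at 1423552_at, a log2 fold change of −0.06 with a 95% interval of −0.31 to 0.19. At 1451018_at it read 9.28, 8.997 and 7.90 in KRAP-/- liver and 9.72, 9.34 and 8.99 in wild-type liver, with −0.10 and an interval of −0.36 to 0.16. The KRAP-/- mouse was the lower one of each pair at 1451018_at, but the genotypes overlapped.

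Jak2, the kinase bound to the intracellular part of the receptor, read 7.88, 7.02 and 6.77 in KRAP-/- liver and 9.46, 8.87 and 7.35 in wild-type liver at 1421066_at. The KRAP-/- value was the lower one in every pair, while the groups overlapped at the wild-type mouse of pair 3. The log2 fold change was −0.24, with a 95% interval of −0.52 to 0.04 and an adjusted p of 0.41 from limma. The other Jak2 probe set, 1421065_at, read 2.70, 2.21 and 2.74 in KRAP-/- liver and 3.33, 2.25 and 2.17 in wild-type liver, with an interval of −0.46 to 0.46 and pairs that moved in opposite directions.

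Stat3, the factor that carries the signal to the nucleus, had probe sets that did not move together. At 1426587_a_at it read 42.6, 47.2 and 43.5 in KRAP-/- liver and 41.4, 46.6 and 37.3 in wild-type liver, which gave a log2 fold change of 0.09 with a 95% interval of −0.11 to 0.29. At 1460700_at it read 25.8, 23.8 and 24.6 in KRAP-/- liver and 29.0, 28.7 and 24.9 in wild-type liver, which gave a log2 fold change of −0.15 with an adjusted p of 0.51 from limma. The first was the higher in KRAP-/- liver in every pair and the other the lower in every pair, and neither passed the test. At 1459961_a_at Stat3 read 3.28, 4.50 and 4.53 in KRAP-/- liver and 2.71, 3.37 and 2.79 in wild-type liver, which gave 0.46 with a 95% interval of 0.08 to 0.85. Its ratios were 1.21, 1.34 and 1.62 and its unadjusted p was 0.023, the only one under 0.05 among the 17 member probe sets outside Lepr, with an adjusted p of 0.25 from limma. The dim probe set 1424272_at gave 1.05, 0.945 and 0.248 in KRAP-/- liver and 0.370, 0.730 and 0.487 in wild-type liver, with no common direction.

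Socs3, the inhibitor that STAT3 itself induces and that binds the activated receptor, did not pass the test at any of 3 probe sets. Its promoter window is shown since it is the only one among the 9 windows of the members with the STAT spacing, here TTCTTAGAA, whose first base lies 154 bases before the start; capitals are as above.
Socs3, chr11:117969367-117969616, minus strand: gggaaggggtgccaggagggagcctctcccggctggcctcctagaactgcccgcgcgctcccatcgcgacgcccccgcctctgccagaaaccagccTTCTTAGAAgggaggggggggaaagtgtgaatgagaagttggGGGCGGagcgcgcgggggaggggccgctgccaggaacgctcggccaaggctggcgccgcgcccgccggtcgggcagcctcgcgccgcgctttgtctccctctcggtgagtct
At 1455899_x_at Socs3 read 4.31, 4.99 and 6.32 in KRAP-/- liver and 4.08, 7.70 and 3.65 in wild-type liver. The pairs disagreed, since the ratio was 1.06 in pair 1, 0.648 in pair 2 and 1.73 in pair 3. At 1456212_x_at it read 3.18, 3.53 and 3.33 in KRAP-/- liver and 3.32, 5.07 and 3.23 in wild-type liver, and the mouse that stood out at both was the wild-type mouse of pair 2. At 1416576_at it read 3.21, 2.49 and 2.04 in KRAP-/- liver and 3.21, 2.78 and 2.45 in wild-type liver. The log2 fold changes were 0.08, −0.18 and −0.14, with intervals of −0.45 to 0.62, −0.58 to 0.22 and −0.56 to 0.27, which were wider than those of Leprot. The suffix x_at marks probe sets some of whose probes may bind other transcripts.

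**Figure D3:**
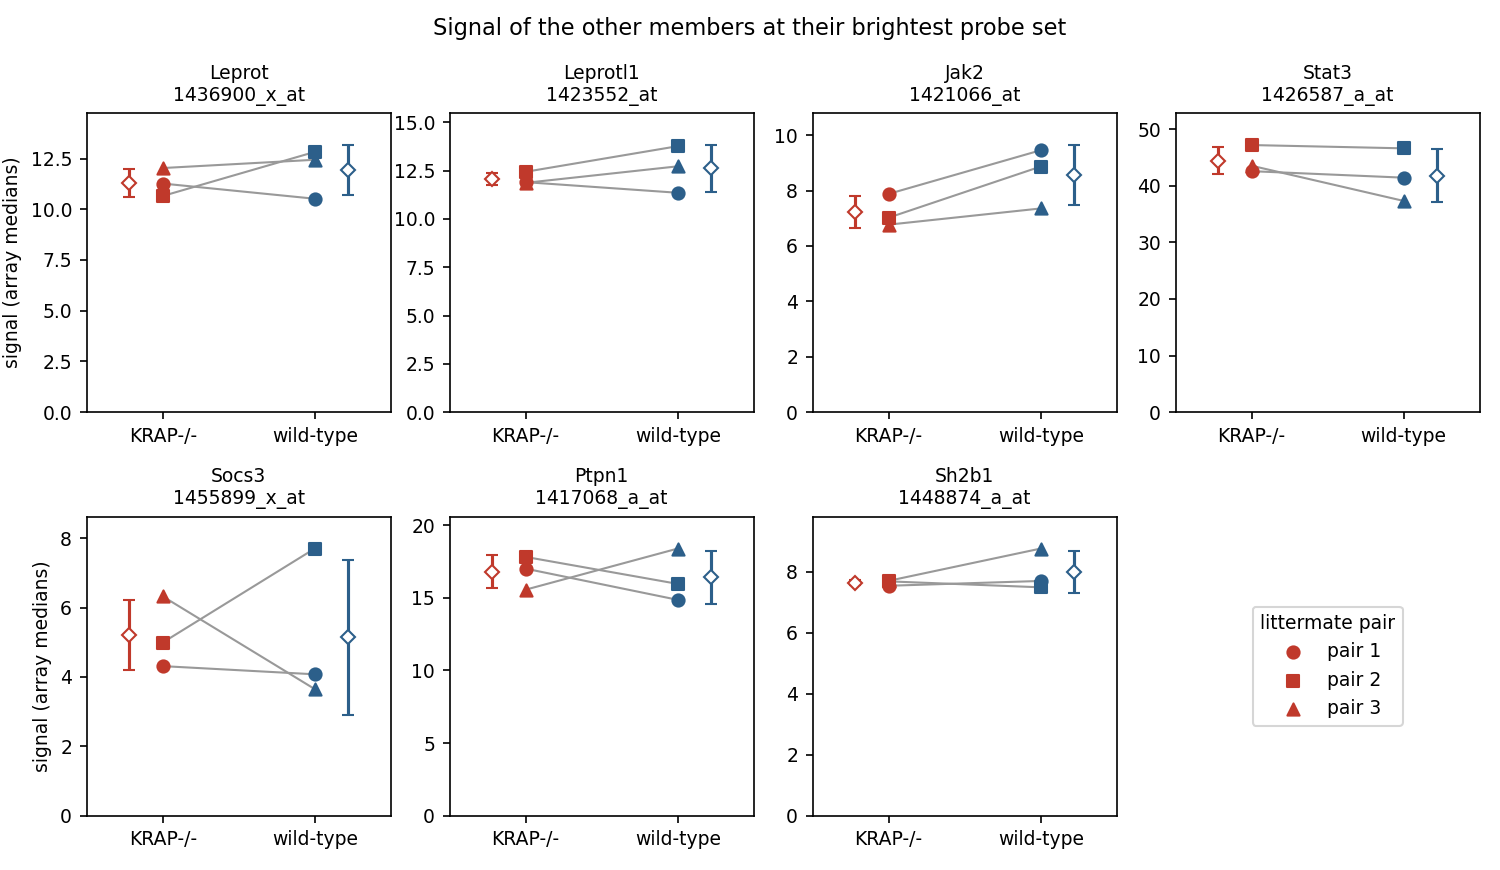
Signal in liver of the 7 other members at their brightest probe set, in array medians, with KRAP-/- mice in red and wild-type littermates in blue. Each symbol is 1 mouse, lines join littermates and open diamonds with bars are means ± SD of 3 mice. The genotypes overlap in all 7 panels.

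Ptpn1, the phosphatase PTP1B that removes the phosphates Jak2 needs, read 17.0, 17.8 and 15.6 in KRAP-/- liver and 14.9, 15.95 and 18.4 in wild-type liver at 1417068_a_at. At 1438670_at it read 8.57, 9.04 and 8.13 in KRAP-/- liver and 8.44, 8.48 and 8.55 in wild-type liver. At both probe sets pairs 1 and 2 were slightly higher and pair 3 lower in KRAP-/- liver. The log2 fold changes were 0.04, with an interval of −0.23 to 0.30, and 0.01, with an interval of −0.25 to 0.28. Sh2b1, the adaptor that raises Jak2 activity, read 7.54, 7.68 and 7.70 in KRAP-/- liver and 7.70, 7.49 and 8.76 in wild-type liver at 1448874_a_at, a log2 fold change of −0.06 with an interval of −0.34 to 0.22. The 3 KRAP-/- mice lay close together within the range of the wild-type mice. Its other probe set, 1431438_at, was too dim to be tested and read at most 0.3997 in KRAP-/- liver and at most 0.336 in wild-type liver.

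Over the 17 tested probe sets outside Lepr, the log2 fold changes ran from −0.24 to 0.46 with a median of −0.03, against −0.04 over all tested probe sets. Of these, 7 lay above 0 and 10 below, and the split was 9 against 8 with the values as deposited and 11 against 6 with quantile normalization. Over all tested probe sets 12794 lay above 0 and 15737 below. That split was 14741 against 13801 with the values as deposited and 14381 against 14155 with quantile normalization. In all 3 pairs KRAP-/- was the higher at 2 of the 17, both of Stat3, and the lower at 3, of Leprotl1, Jak2 and Stat3. The share of all tested probe sets with such agreement was not counted, so no result is read from these numbers. The adjusted p of the 17 ran from 0.25 to 0.99 in limma's fit, which does not show that their levels were equal. The 95% interval held 0 at each of them except Stat3 1459961_a_at, where it was 0.08 to 0.85. These intervals are not adjusted for the number of probe sets, and at this number of arrays they leave room for differences.

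**Figure D4:**
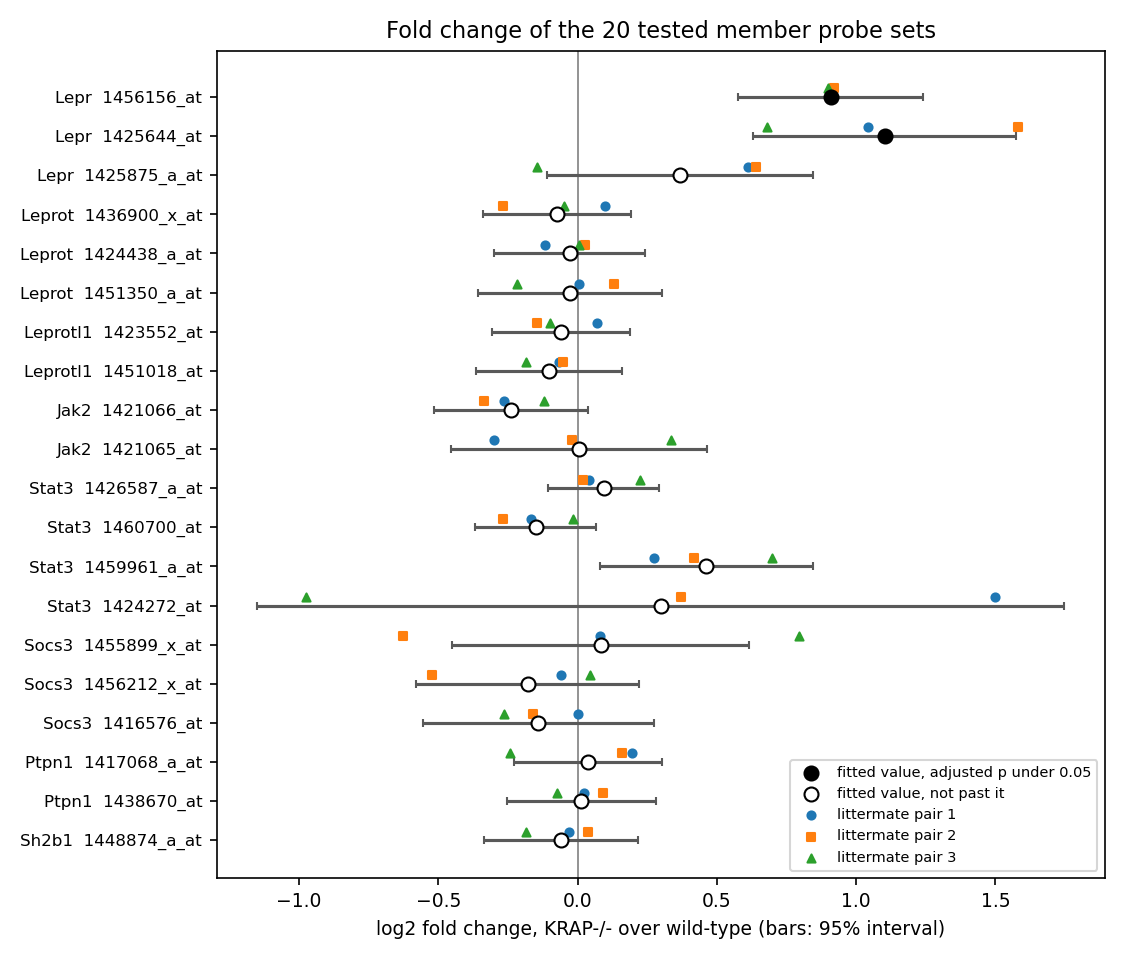
Log2 fold change, KRAP-/- over wild-type, of the 20 tested member probe sets. Large circles are fitted values with 95% intervals, filled where the adjusted p was under 0.05, and small symbols are the 3 littermate pairs. The brightest Lepr probe set has its 3 pairs on top of each other at 0.90 to 0.92, and the 2 filled circles are both of Lepr.

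The rest of the signal chain was followed in 6 lists of other genes, each read at its brightest probe set. Of 95 genes 89 were named on the array and 87 were tested, of which 2 rose, 1 fell and 84 did not pass. Over all 13217 genes read the same way, 0.333% were higher and 1.31% lower in KRAP-/- liver, with a median log2 fold change of −0.08, and 15.7% had an unadjusted p under 0.05. The genes that passed were Il6ra and Lifr, receptor subunits that work through JAK kinases and STAT3 as Lepr does, and Prkaa2, a catalytic subunit of the energy sensor AMPK, which leptin is known to activate in muscle. None of these 3 genes passed under the 3 settings that left no probe set past the threshold.

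Among receptors that share the signal chain, 13 genes were tested, of which 1 rose, 1 fell and 11 did not pass, with 4 at an unadjusted p under 0.05 and a median of −0.11. Il6ra, the binding subunit for interleukin-6, read 13.2, 15.04 and 10.3 in KRAP-/- liver and 6.55, 9.26 and 6.98 in wild-type liver at 1452416_at. The groups did not overlap, and limma gave a log2 fold change of 0.76 (SE 0.13) with an adjusted p of 0.026. Without pair 1 it was 0.63 with an adjusted p of 0.072, without the pair as a block the adjusted p was 0.063, and the dimmer probe set 1422270_a_at gave 0.21 and did not pass. Lifr, the receptor for leukaemia inhibitory factor, read 72.3, 52.7 and 53.8 in KRAP-/- liver and 95.4, 144 and 97.6 in wild-type liver at 1425107_a_at. The groups were apart in the opposite direction to Lepr and Il6ra, and limma gave a log2 fold change of −0.90 (SE 0.16) with an adjusted p of 0.033. It was −1.15 without pair 1 and −0.63 without pair 2. At 1454984_at Lifr read 36.7, 32.7 and 36.4 in KRAP-/- liver and 56.7, 50.6 and 45.9 in wild-type liver, which gave a log2 fold change of −0.53 that also passed, although not without pair 1 (adjusted p = 0.068), without pair 2 (adjusted p = 0.072) or with the values as deposited (adjusted p = 0.112). With quantile normalization neither of these Lifr probe sets passed, with adjusted p of 0.056 and 0.059 from limma. The dim Lifr probe set 1450207_at had −0.57 and did not pass (adjusted p = 0.59 from limma). There the genotypes overlapped, and pair 1 was higher in KRAP-/- liver, with a ratio of 1.54. Il6st, the gp130 subunit that Il6ra and Lifr both pair with, read 23.6 to 25.3 in KRAP-/- liver and 27.6 to 28.04 in wild-type liver, and its log2 fold change of −0.17 did not pass (adjusted p = 0.43).

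Of the other JAKs and STATs 7 were tested and 0 passed in limma's fit, while 2 had an unadjusted p under 0.05, and the median was −0.19. The largest differences were those of Jak3, with −0.59 (adjusted p = 0.23), and Stat5b, the factor of growth hormone signalling, with −0.46 (adjusted p = 0.12). All 7 values lay below 0, but that of Jak1 by only 0.01, and 6 of 7 did so with the values as deposited and with quantile normalization. Over all genes 8208 of 13217 lay below 0, 7166 of 13200 with the values as deposited and 7245 of 13214 with quantile normalization. Of 14 tested SOCS, PIAS and phosphatase genes 0 passed and 3 had an unadjusted p under 0.05, with a median of −0.05. Ptpn6, the phosphatase SHP-1, had −0.55 (adjusted p = 0.070) and passed in 1 of 12 alternatives, the fit without pair 2 (adjusted p = 0.046). Its other probe set, 1460188_at, had −0.34 (adjusted p = 0.23 from limma) and passed in none. Cish, an inhibitor induced by STAT5, had −0.54 (adjusted p = 0.15). It passed in 1 of 12 alternatives, the fit without pair 3, with −0.77 (adjusted p = 0.015).

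Of 18 tested adaptors and side branches of the receptor, 1 rose and 6 had an unadjusted p under 0.05, with a median of 0.00 over the list. Prkaa2 read 29.4, 32.5 and 28.9 in KRAP-/- liver and 15.2, 22.6 and 22.5 in wild-type liver at 1429463_at, a log2 fold change of 0.61 (SE 0.12), just past the threshold with an adjusted p of 0.0498 in limma's fit. The groups did not overlap, and the lowest value was that of the wild-type mouse of pair 1. Without pair 1 the log2 fold change was 0.44 with an adjusted p of 0.125, and without the pair as a block the adjusted p was 0.082. The second Prkaa2 probe set, 1434766_at, read 20.5, 23.1 and 21.3 in KRAP-/- liver and 21.2, 19.9 and 22.7 in wild-type liver, with a log2 fold change of 0.03 that did not pass. The dim Prkaa2 probe set 1429464_at had 0.61 (adjusted p = 0.55 from limma), with ratios of 2.02, 2.41 and 0.729 in pairs 1, 2 and 3. The others of the 6 were Pik3r1 with 0.46, Pde3b with 0.21, Shc1 with −0.52, Akt1 with −0.31 and Akt2 with −0.29, and none passed. Irs1 and Irs2, the insulin receptor substrates that leptin signalling shares with insulin, had −0.10 and 0.22, and neither passed. The Irs2 probe set was dim, with 0.670 to 1.86 in KRAP-/- liver and 0.698 to 1.41 in wild-type liver.

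Of 9 tested genes of receptor shedding and traffic 0 passed in limma's fit and 1 had an unadjusted p under 0.05, with a median of −0.01. Bbs2, a part of the BBSome that carries the leptin receptor to the membrane, had 0.88 (adjusted p = 0.39) from a dim probe set. Mmp14, a protease that cuts the receptor from the cell surface, had 0.36 (adjusted p = 0.18) at 1448383_at and 0.50 (adjusted p = 0.27) at 1416572_at. At both, every KRAP-/- value lay above every wild-type value, as at 7.8% of all tested probe sets. At its dim probe set 1440920_at the genotypes overlapped, and pair 3 was lower in KRAP-/- liver. Adam10, another protease that sheds the receptor, had −0.01, with 15.8 to 18.1 in KRAP-/- liver and 16.7 to 17.8 in wild-type liver. Of 26 tested target genes of STAT3 in liver 0 passed and 6 had an unadjusted p under 0.05, with a median of 0.04. The extremes were Lcn2, an acute phase protein, with 0.55 (adjusted p = 0.064), and Bcl3, a nuclear regulator of NF-kappaB, with −0.53 (adjusted p = 0.13). Lcn2 passed in 3 of 12 alternatives. These were the values as deposited (adjusted p = 0.038), quantile normalization (adjusted p = 0.044) and the fit without pair 3 (adjusted p = 0.032). Its adjusted p from limma was 0.24 without the pair as a block and 0.24 without pair 2. The others of the 6 were Igfbp1 with 0.40, Lbp with 0.34, Serpina3n with 0.30 and Pim1 with −0.52. Their adjusted p from limma ran from 0.16 to 0.27. Fgg, a fibrinogen chain, read 523 to 598 in KRAP-/- liver and 533 to 564 in wild-type liver. Saa1, serum amyloid A, read 24.8 to 71.1 in KRAP-/- liver and 33.5 to 45.3 in wild-type liver.

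**Figure D5:**
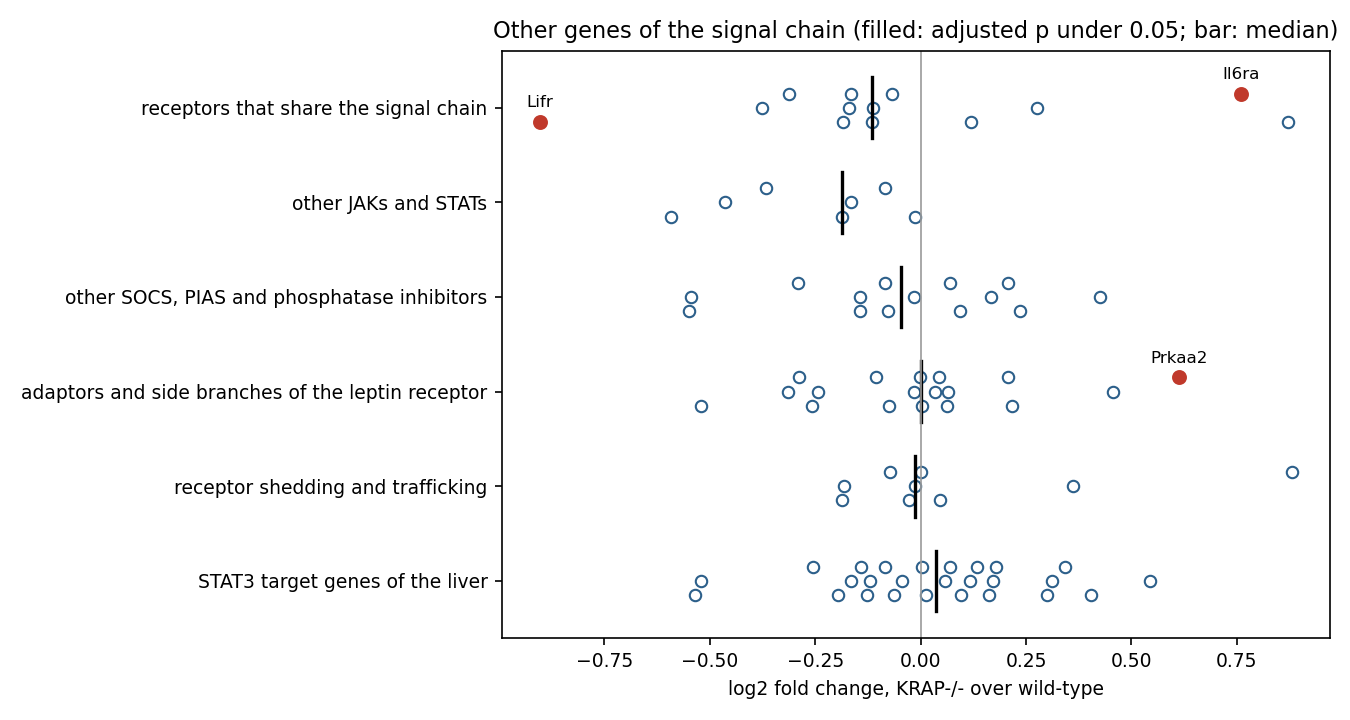
Log2 fold change, KRAP-/- over wild-type, of the 87 tested genes of 6 lists around the leptin receptor, at the brightest probe set of each gene, with a black bar at the median of each list. Filled circles passed the threshold (adjusted p under 0.05): Il6ra at 0.76, Prkaa2 at 0.61 and Lifr at −0.90.

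Markers of other cell types were read beside these values, because whole liver holds more than hepatocytes, and in bulk RNA fewer cells of a type and less RNA per cell cannot be told apart. The summed signal of 8 Kupffer cell and macrophage markers was 176 to 187 in KRAP-/- liver and 205 to 240 in wild-type liver, all 8 fitted values lay below 0, and 1 of them, Clec4f, passed with −0.54 (adjusted p = 0.025 from limma), though not with the values as deposited (adjusted p = 0.071). Over all genes 8208 of 13217 fitted values lay below 0. The sum of 7 stellate cell markers was 251 to 268 in KRAP-/- liver and 219 to 253 in wild-type liver, that of 7 sinusoidal endothelial markers 98.8 to 101 in KRAP-/- liver and 106 to 118 in wild-type liver, and that of 6 named lymphocyte markers 10.5 to 13.1 in KRAP-/- liver and 13.7 to 17.4 in wild-type liver. The 5 adipocyte markers named on the array summed to 8.77 to 12.1 in KRAP-/- liver and 8.92 to 26.7 in wild-type liver, with Lep and Cidec below the minimum mean. The 4 named cholangiocyte markers summed to 3.82 to 5.43 in KRAP-/- liver and 5.16 to 6.35 in wild-type liver. The acinar markers of pancreas, 3 named genes, summed to 11.8 to 13.7 in KRAP-/- liver and 17.1 to 25.0 in wild-type liver. Kupffer cell, endothelial, lymphocyte and acinar sums were lower in every KRAP-/- liver than in every wild-type liver, but in an alternative chosen after seeing the data, the sum without the brightest gene of each list, only the Kupffer cell sum stayed apart, with 117 to 122 in KRAP-/- liver and 141 to 166 in wild-type liver. Without Clec4g the endothelial sum was 59.0 to 61.9 in KRAP-/- liver and 61.2 to 70.2 in wild-type liver, without Ptprc, a gene of all leukocytes, the lymphocyte sum was 3.77 to 5.94 in KRAP-/- liver and 5.01 to 6.49 in wild-type liver, and without Cela1 the acinar sum was 0.311 to 2.10 in KRAP-/- liver and 1.38 to 2.39 in wild-type liver. The median log2 fold change of the endothelial markers was −0.09, against −0.08 over all genes. The part of cell makeup was not tested for any member or pathway gene, Lepr, Il6ra, Lifr, Jak3 and Ptpn6 among them.

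The probe sets of other genes whose log2 signals ran most like those of Lepr 1456156_at over the 6 arrays were those of Dennd5b (Pearson r = 0.996), Snapc3 (0.988), Rcl1 (0.985), Zbtb44 (0.982) and Csnk1g3 (0.976). They are a description of 6 arrays that also share the contrast between the genotypes, and they were picked as the highest of many. They differed widely in size of change, with log2 fold changes of 0.86 for Snapc3, 0.48 for Zbtb44, 0.23 for Dennd5b, 0.20 for Csnk1g3 and 0.11 for Rcl1, and of these Zbtb44 alone was past the threshold (adjusted p = 0.049 from limma), a call lost when pair 1 was left out, at 0.054, and when pair 2 was, at 0.16. Among the members, r with that probe set was 0.87 for Lepr 1425644_at, 0.67 for Lepr 1425875_a_at and 0.87 for Stat3 1459961_a_at, and it ran from −0.68 to 0.60 for the others.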

How the data were processed

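Total RNA of 6 mouse livers was hybridized, 1 liver per array, to Affymetrix Mouse Genome 430 2.0 arrays. The deposited values are linear signal intensities that the authors made with GCOS, and the further normalization to the 50th percentile described in the methods was not in them. Of 45101 probe sets 64 controls were set aside, and array signals were scaled to a median of 1. After a floor of 0.1 array medians and the log2 transform, limma 3.58.1 under R 4.3.3 was run on the 28531 probe sets whose mean reached 0.5, in a model of genotype and littermate pair with trended moderation of the variance, and p-values were adjusted over all of them by Benjamini-Hochberg (threshold 0.05). The number of arrays limits the precision. Fitted folds are on the floored scale.

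The methods describe 3 pairs of littermates and compare KO1 with WT1, KO2 with WT2 and KO3 with WT3. The labels give these numbers but do not name litters. Littermates' deviations from their genotype's mean correlated at 0.043, 0.0095 and −0.012 in pairs 1, 2 and 3, and the pairing was therefore taken from that statement, not from the values.

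Symbols came from the platform annotation, in which 34945 probe sets had 1 symbol, 932 several and 9160 none here. Of 150 genes in the pathway and marker lists 15 are not reported here. Promoter windows were found for 7 of the 8 members in a RefSeq table of GRCm38.p6. In each pathway list the genes named first were those past the threshold or, where none was, the pair with the largest change. Irs1, Irs2, Il6st, Jak1, Adam10, Fgg and Saa1 were added for their role after their values had been seen. The remaining genes with an unadjusted p under 0.05 in the adaptor and STAT3 target lists were likewise added after their values had been seen. The members and lists were chosen with earlier results of these data known.

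Alternatives tried were the deposited scale, quantile normalization, floors of 0.01 and 1, a pseudocount of 0.25, a minimum mean of 1, no filter, no block, no intensity trend, leaving out each pair, averaging the Lepr probe sets, a fold limit of 2 and, chosen after seeing the data, marker sums without the brightest gene. Other software was pandas 2.3.3, numpy 2.4.6, scipy 1.17.1 and matplotlib 3.10.9 under Python 3.11.15.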

Additional observations from a re-analysis of the deposited data

How the results depend on the processing

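Lepr at its brightest probe set kept its direction under every alternative, and its log2 fold change there ran from 0.86 to 0.96. It stayed past the threshold without the littermate pair as a block (0.91, adjusted p = 0.019 from limma) and without each pair in turn (0.90 to 0.91). It was 0.91 but not past the threshold with a floor of 1 (adjusted p = 0.28), with no filter (adjusted p = 0.38) and with no intensity trend (adjusted p = 0.42), and 0.79 for the mean of its probe sets (adjusted p = 0.077). Under the first 3 of these settings 0 of all probe sets were higher and 0 lower, against 123 and 279, so no member and no gene of the pathway lists passed either. Without pair 1, 2 or 3 the counts over all probe sets were 123 to 295 higher and 288 to 469 lower, with 295 and 469 without pair 3. They were 170 and 205 with the values as deposited and 152 and 208 with quantile normalization. The member probe sets higher in KRAP-/- liver numbered 1 to 2 when a pair was left out, with 1 without pair 2, and 0 reached a ratio of 2 in each pair. The pathway genes higher numbered 3 with the values as deposited and with quantile normalization, 1 with a floor of 0.01, 0 without the pair as a block, and 0 to 4 when a pair was left out, with 0 without pair 1. Those lower numbered 0 with quantile normalization and 2 to 3 when a pair was left out. Of the probe sets past the threshold that the text names, the fit without the pair as a block lost those of Il6ra and Prkaa2 and kept the others. The cause of these shifts was not tested, and leaving out a pair also left fewer samples.

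No log2 fold change that turned sign was past the threshold, either as reported or where its sign had turned. With the values as deposited, Leprot was 0.021 at 1424438_a_at and 0.024 at 1451350_a_at, and with quantile normalization it was 0.036 and 0.027, Leprotl1 1423552_at was 0.0056 and Sh2b1 1448874_a_at 0.011. With a pair left out, Leprot ran from −0.16 to 0.026 at 1436900_x_at, from −0.056 to 0.015 at 1424438_a_at and from −0.11 to 0.069 at 1451350_a_at, Jak2 1421065_at from −0.16 to 0.16, Stat3 1424272_at from −0.30 to 0.94, and Socs3 1455899_x_at from −0.27 to 0.44. Ptpn1 ran from −0.041 to 0.18 at 1417068_a_at and from −0.025 to 0.057 at 1438670_at, Sh2b1 1448874_a_at from −0.11 to 0.0036, Il6ra 1422270_a_at from −0.12 to 0.45, Prkaa2 1434766_at from −0.065 to 0.085 and Mmp14 1440920_at from −0.16 to 1.51. Dim probe sets, near the floor, had the widest ranges.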
